A study of Mus musculus with 49 samples.

Results

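Normal common myeloid progenitors (CMP, n = 5) were compared with normal megakaryocyte-erythrocyte progenitors (MEP, n = 4) by RNA sequencing. The comparison used 9 of the 49 samples of the series and the 11721 genes, of 38253 in the table, whose mean over these 9 samples was at least 1 FPKM (a count of sequenced fragments scaled for transcript length and for the size of the library). The rule took the samples by their labels and the tested genes by their mean level, so neither step used the difference between the groups. The samples compared, the gene lists and the genes named below were chosen with earlier results of these data known. Both groups came from the bone marrow of C57BL/6J mice labelled WT, aged 6 to 12 weeks, which the study's methods give as female. No sample was from a leukaemia. Each sample came from 1 mouse and the work was done in 2 experiments, and the sources used here do not say which sample belonged to which.

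CMP were gated as cells negative for mature lineage markers, Sca-1 and CD150, positive for c-Kit and CD34 and low for the Fc gamma receptors. For MEP the study shows only a flow cytometry plot, in which lineage-negative, c-Kit positive and Sca-1 negative cells were gated at lower CD34 and partly lower Fc gamma receptor staining than CMP. Marrow had first been depleted with antibodies against CD3 epsilon, CD11b, B220, Gr-1 and Ter-119, which mark T cells, myeloid cells, B cells, granulocytes and late erythroid cells. In the classical scheme of blood formation CMP give rise both to granulocyte-macrophage progenitors (GMP) and to MEP, and MEP give rise to red cells and platelets. The fork is set by transcription factors that oppose each other, with PU.1 (Spi1) and C/EBP alpha (Cebpa) on the granulocyte and macrophage side and GATA-1 (Gata1) and KLF1 (Klf1) on the erythroid side. Granulocyte precursors fill their primary granules with peroxidase and serine proteases, whereas erythroid precursors turn to haem synthesis, iron uptake, carbonic anhydrases and a spectrin-based membrane skeleton.

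The 9 libraries summed to between 796266 and 928778 FPKM. The table holds no read counts, but the steps between the low values of sparsely detected genes gave relative depths of 0.621 to 0.687 for the MEP libraries and 0.788 to 1.53 for the CMP libraries, where 1 is the median of the 49 samples. Between 15475 and 15631 genes lay above 0 in MEP and between 16497 and 17277 in CMP, so weakly expressed genes were measured less finely in MEP. Mitochondrially encoded genes held 12.5% (CMP replicate 5) to 28.2% (CMP replicate 4) of the summed FPKM. Across the tested genes, Pearson's r of log2(FPKM + 1) was 0.943 to 0.978 between CMP libraries, 0.960 to 0.973 between MEP libraries and 0.865 to 0.952 between a CMP and a MEP library. These correlations are across genes, which are not independent replicates.

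Of the 11721 genes tested with limma, 1497 (12.8%) had an adjusted p below 0.05 and a change beyond 1 on the log2(FPKM + 1) scale. In MEP 313 genes (2.67%) were higher and 1184 (10.1%) were lower. Changes are given throughout as MEP minus CMP on this log2 scale, on which the pseudocount of 1 shrinks the changes of weakly expressed genes, and "rose" and "fell" are used only of genes that passed both thresholds. Every MEP sample lay above every CMP sample for 881 genes (7.52%) and below every CMP sample for 2787 (23.8%). The median change over all genes tested was -0.13, and median-ratio scaling of the samples moved it to -0.05. With that scaling 385 genes were higher and 1069 lower. Restricted to the 6411 genes averaging 10 FPKM or more, 180 rose and 455 fell. In bulk samples, fewer cells that express a gene and less RNA of it per cell cannot be told apart.

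**Figure D1:**
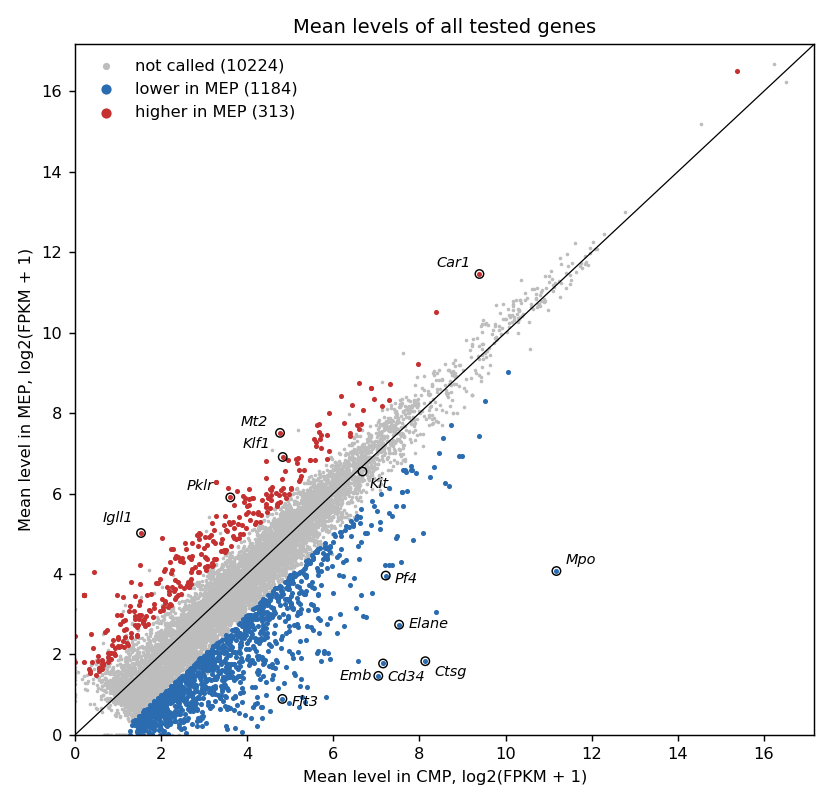
Mean level of each of the 11721 tested genes in CMP (horizontal axis, n = 5) against MEP (vertical axis, n = 4), both as the mean of log2(FPKM + 1). Red points are the 313 genes higher in MEP, blue points the 1184 lower in MEP and grey points the rest. Mpo, Ctsg, Cd34 and other named genes of the granulocyte side lie far below the diagonal, and the named erythroid genes lie above it at a smaller distance.

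The genes of the sorted surface proteins came first, as a check of the labels. Kit, the stem cell factor receptor, did not pass the test, with 94.0, 92.7, 103, 113 and 104 FPKM in the 5 CMP samples and 97.1, 89.3, 86.5 and 97.9 FPKM in the 4 MEP samples. Cd34, a sialomucin of early progenitors, was at 172, 182, 139.9, 112 and 78.7 FPKM in CMP and 4.55, 2.96, 0.62 and 0.63 FPKM in MEP (change -5.58 ± 0.38 (SE), adjusted p = 8.71e-06). The groups were far apart, and the lowest CMP sample was replicate 5. CD34 staining set the CMP gate apart from the MEP gate, so this difference repeats the sort. Of the Fc gamma receptor genes, Fcgr2b fell by 2.39, from 6.94 to 14.4 FPKM in CMP to 0.55 to 1.63 FPKM in MEP. Fcgr3 overlapped between the groups, with 5.61, 9.98, 5.27, 4.77 and 1.87 FPKM in CMP and 1.07, 0.59, 1.35 and 6.27 FPKM in MEP (change -1.12, adjusted p = 0.0717). The overlap came from MEP replicate 4, and the gene passed without that sample (-1.59) or without CMP replicate 5 (-1.39). Ly6a, which encodes Sca-1, was low in both populations and fell from 3.33 to 8.46 FPKM to 0.19 to 1.58 FPKM. Slamf1, which encodes CD150, was at 2.19 to 3.99 FPKM in CMP and 2.34 to 5.44 FPKM in MEP (change 0.00). Of all 12 sort marker genes tested, 6 fell and 1 rose, beside 10.1% lower and 2.67% higher over all genes tested.

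Genes of the primary granules and of promyelocytes held the steepest falls. Of 21 tested members of this list 18 fell and 0 rose, beside 10.1% lower and 2.67% higher over all genes tested. The median change was -2.62 against -0.13 for all genes tested. Mpo, the myeloperoxidase of neutrophil granules (chromosome 11, 87607083 to 87617915, plus strand, NCBIM37), was at 3678, 4292, 1882, 2031 and 1122 FPKM in CMP and 25.8, 24.4, 2.74 and 30.4 FPKM in MEP. The change -7.11 ± 0.61 (SE), adjusted p = 2.07e-05, was the largest fall of any gene tested, and the mean level was 125 times higher in CMP. Ctsg, the serine protease cathepsin G, was at 460.4, 515, 217, 223 and 150.3 FPKM in CMP and 2.95, 3.96, 0.97 and 3.14 FPKM in MEP (change -6.31 ± 0.38 (SE), adjusted p = 5.25e-06). Prtn3, which encodes proteinase 3, was at 533, 642, 271, 250.5 and 184 FPKM and 6.93, 7.26, 5.62 and 10.1 FPKM (change -5.34 ± 0.34 (SE), adjusted p = 5.44e-06). Elane, which encodes neutrophil elastase and lies beside Prtn3 on chromosome 10, was at 351, 447, 112, 177 and 66.2 FPKM and 5.09, 5.22, 1.24 and 22.4 FPKM (change -4.79 ± 0.67 (SE), adjusted p = 0.000357). In these 4 genes the groups did not overlap, CMP replicates 1 and 2 were the highest, CMP replicate 5 was the lowest of its group and MEP replicate 3 the lowest of all. The surface genes Emb, an immunoglobulin superfamily protein, and Clec12a, a lectin receptor of myeloid cells, fell by 5.38 and 3.88, and Anxa3, an annexin of neutrophils, by 3.95. The 3 members that did not pass were lower by less than the threshold of size: Srgn, the proteoglycan that packs granule proteins (-0.76), Calr, a chaperone of the endoplasmic reticulum (-0.89), and Ap3s1, a vesicle adaptor subunit (-0.90, and -1.01, past the threshold, without CMP replicate 5). In GMP the mean levels were 12761 FPKM for Mpo, 1773 FPKM for Ctsg and 4302 FPKM for Elane, above every CMP sample.

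The promoters of 3 of these granule genes, Mpo, Prtn3 and Elane, are shown as examples. That of Ctsg, which fell further than Prtn3 and Elane, is not shown. The sequences are RefSeq's 250 bases before each gene's start, 5′ to 3′ on the coding strand, located in NCBIM37 by exact match, and capitals mark motif letters. RefSeq's start lies 203 bases inside the gene as GENCODE draws it for Mpo and 5191 bases inside for Prtn3, and at the same base for Elane, so most of the Mpo window and all of the Prtn3 window fall within the GENCODE gene. Distances are counted from RefSeq's start.
Mpo, chr11:87607036-87607285, plus strand: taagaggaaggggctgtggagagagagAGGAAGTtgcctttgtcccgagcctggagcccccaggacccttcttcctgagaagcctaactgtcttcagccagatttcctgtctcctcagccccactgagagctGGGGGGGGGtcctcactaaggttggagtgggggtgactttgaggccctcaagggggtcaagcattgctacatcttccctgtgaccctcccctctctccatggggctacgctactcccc
Prtn3, chr10:79342162-79342411, plus strand: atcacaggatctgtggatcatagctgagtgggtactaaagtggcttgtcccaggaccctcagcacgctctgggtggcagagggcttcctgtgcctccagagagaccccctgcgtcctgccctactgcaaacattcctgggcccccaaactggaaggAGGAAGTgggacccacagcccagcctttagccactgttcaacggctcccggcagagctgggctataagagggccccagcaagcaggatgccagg
Elane, chr10:79348807-79349056, plus strand: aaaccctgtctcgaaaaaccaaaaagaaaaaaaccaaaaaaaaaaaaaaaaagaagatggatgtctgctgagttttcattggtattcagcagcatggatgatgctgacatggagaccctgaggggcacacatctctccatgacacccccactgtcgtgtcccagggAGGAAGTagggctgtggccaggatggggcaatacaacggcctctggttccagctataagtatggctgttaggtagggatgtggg
Each of the 3 windows held AGGAAGT, letters that ETS factors such as PU.1 bind, on the coding strand, beginning 223 bases before the start in Mpo, 94 in Prtn3 and 84 in Elane. The other capitals in Mpo are a run of G that matches CCNCNCCC, letters bound by KLF factors, on the opposite strand. The 3 genes were chosen by name and do not stand for the granule list. Before GENCODE starts, AGGAAGT was present for 12.9% of genes lower in MEP and 7.31% of genes tested. A match of letters is a description, not a binding site.

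**Figure D2:**
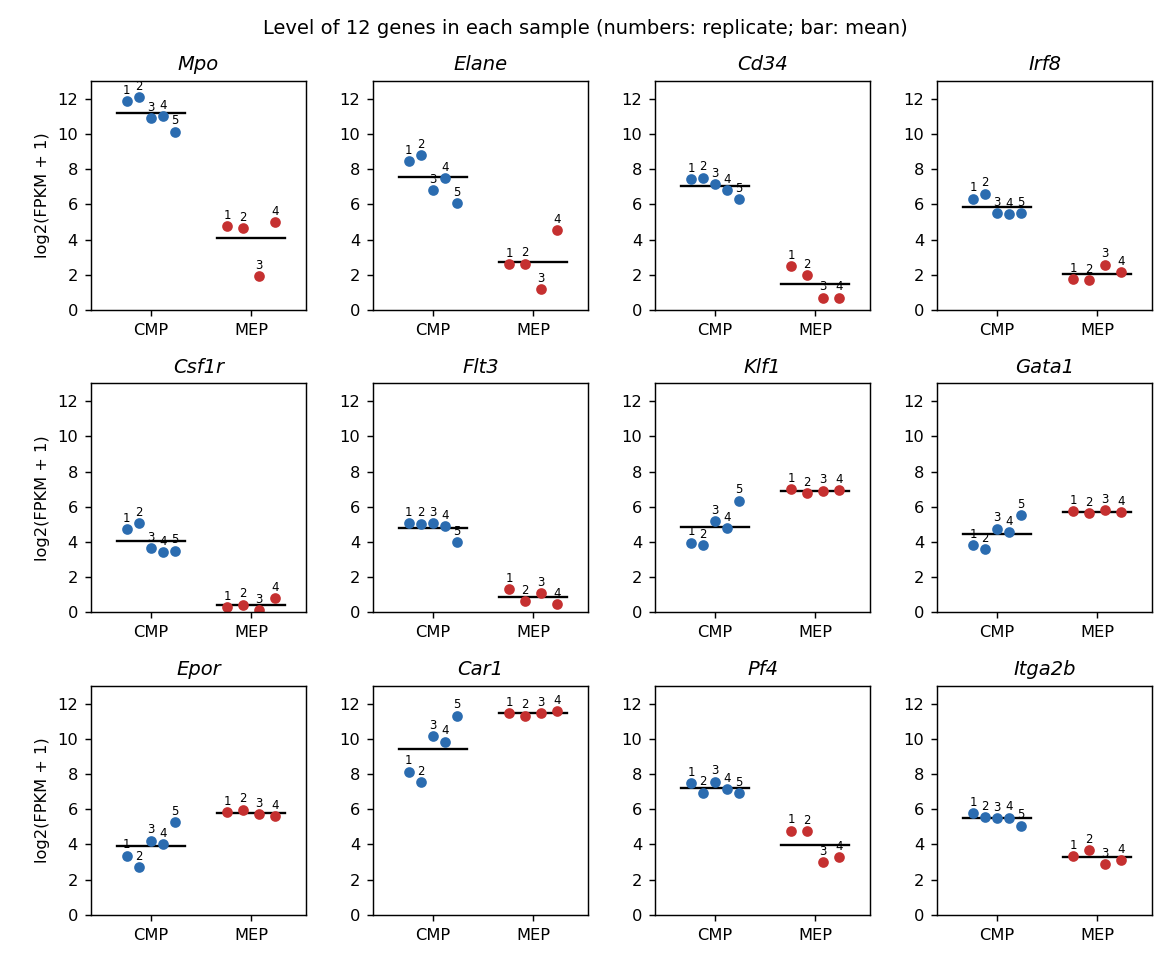
Level of 12 genes in each sample as log2(FPKM + 1) (vertical axis), with CMP samples in blue and MEP samples in red, numbered by replicate, and a bar at each group's mean. For Mpo, Elane, Cd34, Irf8, Csf1r, Flt3, Pf4 and Itga2b every MEP point lies below every CMP point, and for Klf1, Gata1, Epor and Car1 every MEP point lies above every CMP point.

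Of 22 transcription regulators of the granulocyte and monocyte lineages tested, 11 fell and 0 rose, with a median of -1.20. Over all genes tested 10.1% were lower and 2.67% higher. The level filter used all 9 samples, so a member high only in CMP could pass it. With no level filter 11 of 25 fell and 0 rose, with a median of -0.90. Spi1, which encodes PU.1, a master regulator of myeloid fate, was at 79.0, 80.6, 43.1, 53.9 and 38.4 FPKM in CMP and 5.03, 4.87, 4.26 and 10.3 FPKM in MEP (change -3.08 ± 0.27 (SE), adjusted p = 2.42e-05). Cebpa, required for the step from CMP to GMP, was at 16.7, 18.8, 9.36, 7.04 and 6.75 FPKM in CMP and 0.48, 0.96, 0.23 and 0.73 FPKM in MEP (change -2.90 ± 0.30 (SE), adjusted p = 5.45e-05). Irf8, which directs monocyte and dendritic cell development, was at 78.8, 96.7, 43.9, 42.7 and 43.9 FPKM in CMP and 2.40, 2.20, 4.96 and 3.38 FPKM in MEP (change -3.83 ± 0.28 (SE), adjusted p = 1.16e-05). None of these 3 factors overlapped between the groups, and in each CMP replicates 1 and 2 were the highest. Tfec, a relative of the MITF factors, fell by 3.37, Runx2 by 2.92 and Rel, an NF-kappa B subunit, by 2.07. The immediate-early genes Egr1, Fos and Jun, which respond within minutes to stimulation of cells, did not pass. All 3 were highest in replicate 2 of both groups, where Egr1 stood at 203 FPKM (CMP) and 139.8 FPKM (MEP).

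Of 30 receptors for myeloid cytokines 19 fell and 1 rose, beside 10.1% lower and 2.67% higher over all genes tested. The list's median was -1.43, and the share that rose lay near that background. Flt3, the receptor of lymphoid and dendritic progenitors, was at 32.1, 32.0, 32.8, 28.8 and 15.2 FPKM in CMP and 1.54, 0.58, 1.11 and 0.40 FPKM in MEP (change -3.92 ± 0.25 (SE), adjusted p = 5.44e-06). Csf1r, the macrophage colony-stimulating factor receptor, was at 25.2, 32.5, 11.6, 9.89 and 10.4 FPKM in CMP and 0.23, 0.36, 0.11 and 0.74 FPKM in MEP (change -3.66 ± 0.34 (SE), adjusted p = 3.04e-05). Csf3r, the granulocyte colony-stimulating factor receptor, was at 40.0, 42.9, 33.2, 42.0 and 17.2 FPKM in CMP and 2.06, 1.13, 1.44 and 2.81 FPKM in MEP (change -3.62 ± 0.27 (SE), adjusted p = 1.24e-05). All 3 receptors stayed below 3 FPKM in every MEP sample. Il6ra and Il6st, which encode the interleukin-6 receptor and its signalling partner, fell by 3.47 and 3.57, and Csf2rb, the beta chain shared by the receptors for interleukin-3, interleukin-5 and GM-CSF, by 3.43.

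The receptor that rose was Epor, the erythropoietin receptor. It was at 9.33, 5.60, 17.7, 15.0 and 37.1 FPKM in CMP and 57.0, 62.2, 52.0 and 47.7 FPKM in MEP (change 1.88 ± 0.40 (SE), adjusted p = 0.00403). CMP replicate 5 lay closest to MEP. Of 23 tested members of the erythropoietin signalling list, Epor alone rose and 3 fell, with a median of -0.31, shares near the 2.67% higher and 10.1% lower over all genes tested. Those that fell were Pim1, a survival kinase (1.60 lower), Stat3 (1.31 lower) and Gab2, a docking protein (1.06 lower, and not past the threshold without CMP replicate 1 or MEP replicate 2, at -0.99 in both). Jak2, the kinase bound to the receptor, was at 16.3 to 22.4 FPKM in CMP and 21.2 to 26.2 FPKM in MEP, and Stat5a, the factor it activates, at 24.9 to 35.8 FPKM and 26.6 to 33.7 FPKM (changes 0.30 and 0.02).

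Of 31 erythroid and megakaryocyte transcription regulators tested, 6 rose, 4 fell and 21 did not pass, beside 2.67% higher and 10.1% lower over all genes tested. The list's median was 0.12, which was -0.01 when samples were scaled without mitochondrial genes. Without MEP replicates 3 and 4 3 rose. Klf1, the activator of erythroid genes, was at 14.6, 13.4, 35.3, 26.4 and 80.8 FPKM in CMP and 128, 108, 120.1 and 121 FPKM in MEP (change 2.08 ± 0.42 (SE), adjusted p = 0.00325). Gata1 was at 12.9, 11.2, 26.0, 22.4 and 44.5 FPKM in CMP and 52.8, 49.5, 55.3 and 50.6 FPKM in MEP (change 1.28 ± 0.32 (SE), adjusted p = 0.00979). Gfi1b, a repressor required for both erythroid and megakaryocytic cells, was at 37.1, 32.9, 50.8, 36.2 and 106 FPKM in CMP and 147, 143, 127 and 162 FPKM in MEP (change 1.59 ± 0.29 (SE), adjusted p = 0.00179). The groups did not overlap for these 3 genes, the MEP samples lay close together, and CMP replicate 5 was in each the CMP sample nearest to MEP. Mllt3, a chromatin reader of stem and erythroid-megakaryocytic progenitors, and Trib2, a pseudokinase, rose by 1.33 and 1.45, and Klf3, a repressor that Klf1 activates, by 1.22. Tal1, which binds DNA together with GATA factors, was higher in every MEP sample than in every CMP sample, but by 0.75, under the threshold of size. Gata2, the GATA factor of stem and early progenitor cells, was at 65.6 to 79.5 FPKM in CMP and 43.6 to 66.7 FPKM in MEP (-0.39). Lmo2, Myb and Ikzf1, the 3 most abundant of those that did not pass, changed by -0.13, 0.00 and 0.23. Those that fell included Mef2c (1.83 lower), Fli1, an ETS factor of megakaryocytes (1.70), and Ikzf2 (1.46).

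The promoters of Klf1, Gfi1b and Epor are shown beside that of Cd34 to set genes that rose next to the gene of the CMP gate.
Klf1, chr8:87425631-87425880, plus strand: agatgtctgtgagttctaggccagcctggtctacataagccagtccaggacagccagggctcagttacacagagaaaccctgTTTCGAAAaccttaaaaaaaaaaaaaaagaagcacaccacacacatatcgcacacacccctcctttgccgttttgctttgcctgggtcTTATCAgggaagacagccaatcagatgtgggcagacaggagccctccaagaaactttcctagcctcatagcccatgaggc
Gfi1b, chr2:28477503-28477752, minus strand: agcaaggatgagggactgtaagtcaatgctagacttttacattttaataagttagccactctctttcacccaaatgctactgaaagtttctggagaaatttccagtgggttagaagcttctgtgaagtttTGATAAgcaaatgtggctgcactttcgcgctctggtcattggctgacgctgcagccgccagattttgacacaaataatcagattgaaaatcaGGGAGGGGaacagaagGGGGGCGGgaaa
Epor, chr9:21768021-21768270, minus strand: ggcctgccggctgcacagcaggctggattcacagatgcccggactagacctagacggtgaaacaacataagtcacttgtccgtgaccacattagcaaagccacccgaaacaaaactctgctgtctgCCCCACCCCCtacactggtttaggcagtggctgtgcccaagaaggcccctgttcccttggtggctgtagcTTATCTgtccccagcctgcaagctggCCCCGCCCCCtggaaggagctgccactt
Cd34, chr1:196764765-196765014, plus strand: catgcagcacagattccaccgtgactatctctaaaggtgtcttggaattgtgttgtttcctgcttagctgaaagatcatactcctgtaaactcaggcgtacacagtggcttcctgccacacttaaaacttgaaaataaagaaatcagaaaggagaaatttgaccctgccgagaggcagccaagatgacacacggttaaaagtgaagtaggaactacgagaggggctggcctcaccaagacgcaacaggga
Capitals here and in the granule promoters mark AGATAA and TGATAA (letters bound by GATA factors), CCNCNCCC (KLF factors), AGGAAGT (ETS factors) and TTNCNNAA (C/EBP factors), searched on both strands, where matches of 1 motif may overlap each other. RefSeq's start lies 54 bases inside the GENCODE gene for Klf1 and at the same base for the other genes shown here. Klf1 held TGATAA on the opposite strand beginning 80 bases before RefSeq's start, Gfi1b held TGATAA on the coding strand at 120 bases and Epor held AGATAA on the opposite strand at 54 bases. Gfi1b and Epor also held CCNCNCCC, Klf1 held TTNCNNAA, and the Cd34 window held none of the 5 motifs. Over the 250 bases before GENCODE gene starts, AGATAA or TGATAA was present for 18.3% of the 295 genes higher in MEP that had a sequence, 12.6% of 1151 lower in MEP, 10.8% of 11317 tested and 18.7% of all 33062 genes in the table with a sequence. AGGAAGT was present for 6.1%, 12.9%, 7.31% and 7.01% of the same groups. For CCNCNCCC the shares were 65.1%, 63.6%, 59.1% and 41.7%, and for TTNCNNAA 29.8%, 33.4%, 30.2% and 38.4%. These shares are descriptions without a test.

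Of 34 tested genes of haem synthesis and iron uptake, 15 rose, 2 fell and 17 did not pass, with a median of 0.93. Over all genes tested 2.67% were higher and 10.1% lower. Tfrc, the transferrin receptor that brings in iron, was at 38.4, 33.5, 49.7, 41.0 and 81.8 FPKM in CMP and 147, 109, 104 and 95.3 FPKM in MEP (change 1.26 ± 0.23 (SE), adjusted p = 0.00197). The groups did not overlap for Tfrc, and CMP replicate 5 was again the CMP sample nearest to MEP. Blvrb, a biliverdin reductase of red cells, rose by 2.13, Slc40a1, the iron exporter ferroportin, by 1.75, and Cpox, the coproporphyrinogen oxidase, by 1.59. The genes of the first committed step diverged. Alas1, the housekeeping 5-aminolevulinate synthase, fell by 1.54, from 18.6 to 47.7 FPKM to 7.71 to 11.5 FPKM. Alas2, its erythroid form, was low and overlapped, at 7.67, 7.16, 0.97, 2.49 and 4.81 FPKM in CMP and 9.44, 8.38, 1.68 and 7.90 FPKM in MEP (change 0.50, adjusted p = 0.444).

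The list of carbonic anhydrases and of the red cell membrane and its skeleton held the most rises. Of 34 tested members 22 rose and 1 fell, with a median of 1.46, beside 2.67% higher and 10.1% lower over all genes tested. The list was chosen with earlier results of these data known, so its count is a description. Car1, the erythroid carbonic anhydrase, was at 281, 184, 1126, 918 and 2541 FPKM in CMP and 2826, 2557, 2840.3 and 3048 FPKM in MEP (change 2.06 ± 0.63 (SE), adjusted p = 0.0237). Car2 was at 183, 147, 502, 294 and 1029 FPKM in CMP and 1651, 1419, 1422 and 1354 FPKM in MEP (change 2.13 ± 0.47 (SE), adjusted p = 0.00502). For Car1, CMP replicate 5 lay just under the lowest MEP sample, while CMP replicates 1 and 2 lay far below. Car1 did not pass without CMP replicate 1 (1.75) or without MEP replicate 1, 3 or 4 (2.06, 2.06 and 2.03). Cldn13, a claudin found in erythroid cells, rose by 2.60, from 3.55 to 44.9 FPKM to 61.8 to 86.2 FPKM. Sphk1, a sphingosine kinase that the list also held, rose by 2.36. The skeleton genes Ank1 (ankyrin) and Add2 (adducin) rose by 2.28 and 2.21. Aqp1, a water channel, rose by 2.10. The member that fell was Slc2a1, a glucose transporter (1.74 lower).

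Globin transcripts overlapped between the groups. Hbb-b1, an adult beta globin gene, was at 643, 402, 76.8, 73.5 and 191 FPKM in CMP and 1076, 1062, 148 and 1619 FPKM in MEP (change 1.89, adjusted p = 0.0778). MEP replicate 3 lay below CMP replicates 1, 2 and 5. Of 4 globin genes tested, Hba-a1 passed (1.74, adjusted p = 0.0395) although its groups overlapped too, and the other 3 did not. The globin genes share much of their sequence with close copies, so reads could be split among them, and without any 1 of MEP replicates 1, 2 or 4 none passed, while without MEP replicate 3 all 4 did. Hba-a1 also missed the thresholds without CMP replicate 3 or 4 (1.52 and 1.36), and Hbb-b1 passed without CMP replicate 1 (2.32). The neutrophil gene S100a8, at 131, 159, 14.9 and 997 FPKM in MEP replicates 1 to 4, was likewise lowest in replicate 3 and highest in replicate 4, and the part of carried-over mature cells in the globin values was not tested.

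**Figure D3:**
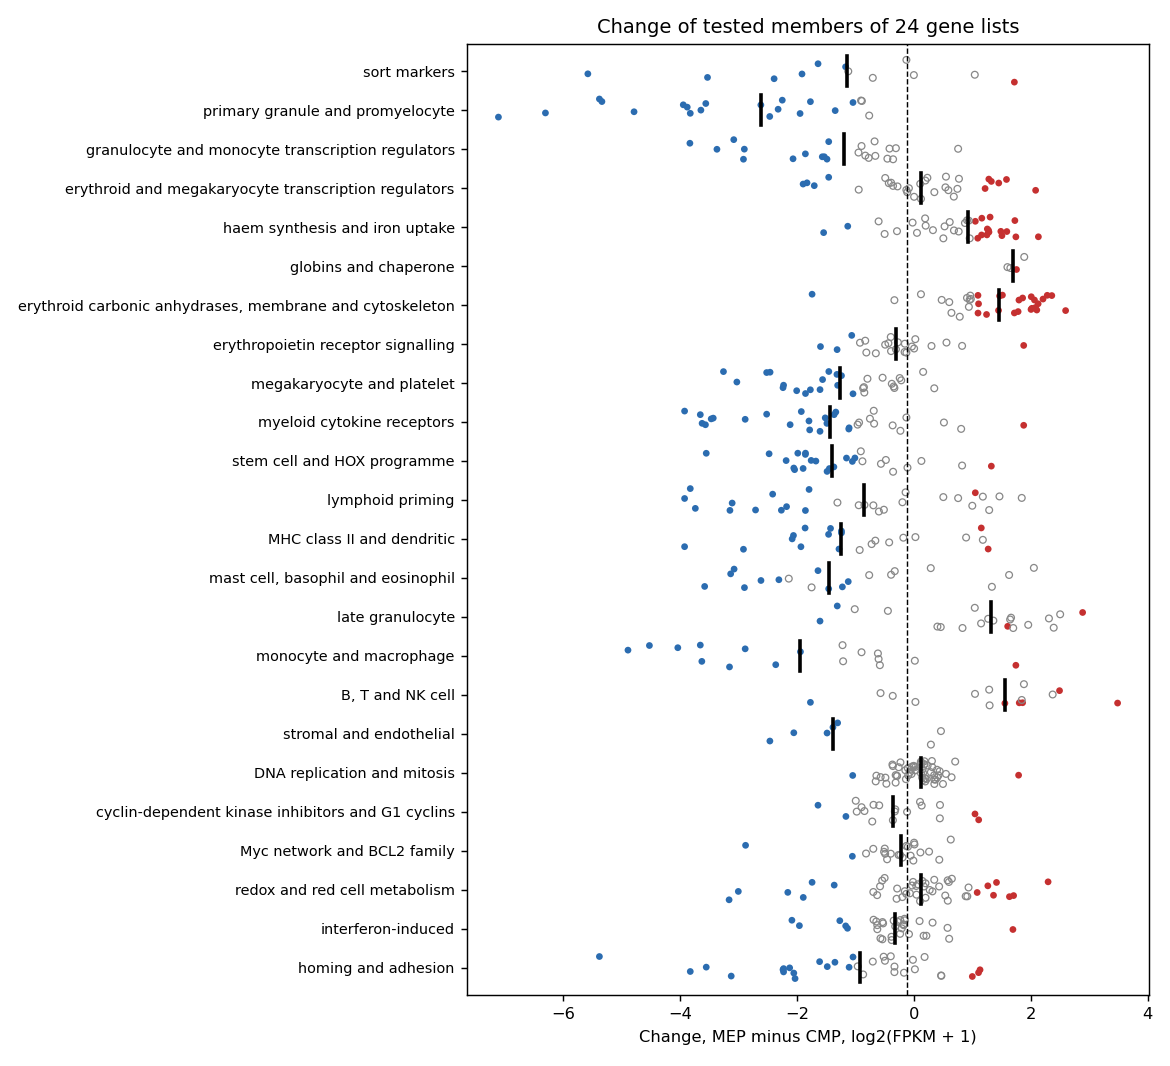
Change in each tested member of 24 gene lists, as MEP minus CMP on the log2(FPKM + 1) scale (horizontal axis). Filled points passed the test and open points did not, the black bar is the list's median and the dashed line the median of all genes tested (-0.13). The granule list has the lowest median (-2.62), the globin, B cell and red cell membrane lists have the highest, and the replication list gathers around 0.

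Within the list of redox and red cell metabolism 7 of 46 tested genes rose and 6 fell, beside 2.67% higher and 10.1% lower over all genes tested. The list's median was 0.13, which was 0.00 when samples were scaled without mitochondrial genes. The pyruvate kinase genes exchanged places. Pkm, the form of most proliferating cells, was at 133, 153, 93.9, 74.6 and 68.1 FPKM in CMP and 9.11, 7.94, 9.47 and 15.7 FPKM in MEP (change -3.16 ± 0.26 (SE), adjusted p = 1.68e-05). Pklr, the liver and red cell form (chromosome 3, 88940064 to 88950706, NCBIM37), was at 5.18, 2.92, 16.9, 13.3 and 42.0 FPKM in CMP and 61.6, 62.9, 62.3 and 49.6 FPKM in MEP (change 2.30 ± 0.56 (SE), adjusted p = 0.00831). Every CMP sample but replicate 5 held more than 4 times as much Pkm as Pklr, and every MEP sample held at least 3 times as much Pklr as Pkm. Other genes of sugar use that fell were Ldhb, a lactate dehydrogenase chain (2.16 lower), Hk2, a hexokinase (1.89 lower), and Pgam1, a phosphoglycerate mutase that shares most of its sequence with copies elsewhere in the genome (3.00 lower). Gstm5, a glutathione transferase, rose by 1.71, and Prdx2, the peroxiredoxin of red cells, rose from 114 to 273 FPKM to 379 to 485 FPKM (1.41 higher). Gpx1 and Sod1, which remove peroxide and superoxide, changed by 0.04 and 0.58 and did not pass both thresholds.

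Of 28 tested megakaryocyte and platelet genes 16 fell and 0 rose, with a median of -1.27, and 12 further members lay below the level filter. Over all genes tested 10.1% were lower and 2.67% higher. With no level filter 17 of 40 fell and 0 rose, with a median of -0.86. Pf4, the platelet chemokine, was at 180.0, 122, 189, 141 and 120.3 FPKM in CMP and 26.6, 26.1, 7.11 and 8.62 FPKM in MEP (change -3.26 ± 0.36 (SE), adjusted p = 8.59e-05). Itga2b, the integrin chain known as CD41, was at 54.8, 45.9, 44.6, 45.0 and 32.6 FPKM in CMP and 9.06, 11.9, 6.45 and 7.71 FPKM in MEP (change -2.23 ± 0.18 (SE), adjusted p = 1.48e-05). For both genes the lowest CMP sample lay above the highest MEP sample. Plek, the platelet protein pleckstrin, fell by 3.03, Selp, the adhesion molecule P-selectin, by 2.46, and Itgb3, the partner of CD41, by 2.24. Vwf, the von Willebrand factor, did not pass, at 11.2 to 19.0 FPKM in CMP and 7.14 to 14.2 FPKM in MEP (-0.33), nor did F2r, a thrombin receptor (-0.24). In long-term stem cells the mean level of Itga2b was 30.2 FPKM.

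Stem cell and HOX genes fell in 17 of 26 tested, with 1 rise (Mllt3) and a median of -1.41. Over all genes tested 10.1% were lower and 2.67% higher. With no level filter 17 of 37 fell and 1 rose, with a median of -0.96. Meis1, a homeobox partner of HOX proteins, was at 53.7, 52.0, 57.2, 64.8 and 34.3 FPKM in CMP and 14.1, 18.4, 7.45 and 11.2 FPKM in MEP (change -1.99 ± 0.24 (SE), adjusted p = 0.00013). Hoxa9, which acts with Meis1, was at 10.4, 7.91, 8.09, 9.06 and 5.61 FPKM in CMP and 2.56, 4.64, 1.42 and 2.12 FPKM in MEP (change -1.37 ± 0.24 (SE), adjusted p = 0.00134). Mecom, the stem cell regulator also known as Evi1, was at 5.62, 11.9, 9.75, 8.77 and 2.28 FPKM in CMP and 1.57, 1.40, 1.04 and 0.04 FPKM in MEP (change -2.04 ± 0.40 (SE), adjusted p = 0.00264). In all 3 the groups were separate and the lowest CMP sample was replicate 5. Cd93, a receptor of early progenitors, fell by 3.55, Hlf, a stem cell transcription factor, by 2.48 and Hmga2, a chromatin protein, by 2.19. Msi2, an RNA-binding protein of stem cells, was lower by less than the threshold of size (-0.48).

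Genes of lymphoid priming were lower in MEP for 11 of 27 tested, with 1 rise and a median of -0.85. Over all genes tested 10.1% were lower and 2.67% higher. With no level filter 10 of 30 fell and 1 rose, with a median of -0.65. The number that rose depended on single samples, being 7 without MEP replicate 2, 2 without MEP replicate 1 and 0 without any 1 of CMP replicates 1 and 3 or MEP replicates 3 and 4. Cd27, a receptor of lymphoid-biased progenitors, fell by 3.74, and Satb1, a chromatin organiser, by 3.15. Dntt, the terminal transferase of lymphoid precursors, did not pass (change -1.31, adjusted p = 0.191). It was at 23.6, 20.01, 54.7, 33.9 and 25.9 FPKM in CMP and 3.77, 1.85, 38.4 and 42.8 FPKM in MEP, so MEP replicates 3 and 4 lay among the CMP samples and replicates 1 and 2 far below. Without MEP replicates 3 and 4 Dntt fell by 3.06.

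Of 21 genes of MHC class II and dendritic cells 11 fell and 2 rose, with a median of -1.24. Over all genes tested 10.1% were lower and 2.67% higher. With no level filter 10 of 28 fell and 2 rose, with a median of -0.69. Cd74, the invariant chain, was at 36.5, 33.2, 126, 197 and 138 FPKM in CMP and 23.4, 24.3, 32.6 and 43.1 FPKM in MEP (change -1.46 ± 0.50 (SE), adjusted p = 0.0381). CMP replicates 1 and 2 were close to MEP for this gene and furthest from it for the granule genes. Cd74 did not pass without any 1 of CMP replicates 3, 4 and 5 or MEP replicates 1, 2 and 3 (-1.50 to -1.16). H2-DMa and H2-DMb1, which load peptides onto class II molecules, did not show this split: H2-DMa was at 118, 113, 99.3, 96.9 and 74.4 FPKM in CMP and 29.1, 25.0, 25.6 and 26.7 FPKM in MEP (change -1.86 ± 0.13 (SE), adjusted p = 1.10e-05), and H2-DMb1 fell by 2.06. Clec9a, a lectin of dendritic cells, fell by 2.08.

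Of 19 tested genes of mast cells, basophils and eosinophils 10 fell and 0 rose, with a median of -1.46. Over all genes tested 10.1% were lower and 2.67% higher. With no level filter 10 of 28 fell and 0 rose, with a median of -0.67. Cpa3, the mast cell carboxypeptidase, was at 62.1, 59.6, 54.4, 46.7 and 26.9 FPKM in CMP and 3.49, 2.96, 2.65 and 3.32 FPKM in MEP (change -3.58 ± 0.22 (SE), adjusted p = 5.25e-06). Rab44, a granule GTPase of mast cells, Fcer1g, the signalling chain of Fc receptors, and Hdc, histidine decarboxylase, fell by 3.14, 3.08 and 2.90. Prg2, the major basic protein of eosinophils, did not pass: it was at 0.23 to 4.21 FPKM in CMP and at 9.84, 0.72, 1.41 and 166 FPKM in MEP, where replicate 4 stood alone.

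Of the marker lists for cells that the sorts should have left out, 2 were much higher in some MEP samples than in others. The summed level of 27 late granulocyte genes was 58.2 to 318 FPKM in CMP, 516, 555 and 56.8 FPKM in MEP replicates 1 to 3 and 3634 FPKM in MEP replicate 4. S100a8 was at 59.4, 21.2, 9.15, 8.47 and 58.8 FPKM in CMP and, as given with the globins, at 14.9 to 997 FPKM in MEP (change 2.50, adjusted p = 0.0704), and S100a9, its partner, was at 8.14 to 113 FPKM in CMP and 198, 231, 20 and 1391 FPKM in MEP (change 2.39, adjusted p = 0.1). Of 20 members tested, 2 rose (Camp and Stfa2l1) and 2 fell (Cxcr2 and Padi4), with a median of 1.32. Over all genes tested 2.67% were higher and 10.1% lower. With no level filter 1 of 27 members rose and 2 fell, with a median of 0.83. Without MEP replicate 4 none rose and 4 fell, and without MEP replicate 3 there were 11 rises, S100a8 (3.53) and S100a9 (3.46) among them. Camp did not pass without any 1 of CMP replicates 2, 3 and 4 or MEP replicates 1, 2 and 4 (1.97 to 2.95).

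The second of these lists was that of B, T and NK cells, in which B cell genes were high in MEP replicates 3 and 4. Igll1, the surrogate light chain of pre-B cells, was at 0.10, 0, 5.39, 3.63 and 5.19 FPKM in CMP and 6.48, 5.52, 128 and 174 FPKM in MEP (change 3.49 ± 1.06 (SE), adjusted p = 0.0232). It had the largest rise among genes whose groups did not overlap and whose sequence is mostly their own. Cd79a, a signalling chain of the B cell receptor, was at 1.00, 0.26, 2.23, 2.21 and 2.49 FPKM in CMP and 3.73, 3.76, 33.8 and 46.4 FPKM in MEP (change 2.49 ± 0.69 (SE), adjusted p = 0.0154). In both genes MEP replicates 1 and 2 lay only just above CMP, and replicates 3 and 4 more than 8 times higher. Igll1 did not pass without CMP replicate 1 or 2 (3.14 and 3.10) or MEP replicate 3 or 4 (2.82 and 2.68), and without both of those MEP samples Cd79a did not pass either (0.94). Of 15 B, T and NK cell genes tested 5 rose and 1 fell, beside 2.67% higher and 10.1% lower over all genes tested. The list's median was 1.56. The level filter used all 9 samples, so a member high only in MEP replicates 3 and 4 could pass it. With no level filter 4 of 29 rose and 1 fell, with a median of 0.55. Without MEP replicates 3 and 4 1 rose and 2 fell among the 10 still tested, with a median of 0.008. Without MEP replicate 2 alone 10 rose, without MEP replicate 3 or 4 alone 2 rose, and with the replicate number as a block 9 rose. The summed level of the 29 members was 298 to 378 FPKM in CMP and 176, 182, 506 and 657 FPKM in MEP replicates 1 to 4. Most of the sum outside those replicates came from Nkg7, a granule membrane protein that fell by 1.77, and Cd37, a tetraspanin (-0.36). Ms4a1, the CD20 gene of later B cells, reached at most 0.51 FPKM in any sample.

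Of 17 monocyte and macrophage genes tested 9 fell and 1 rose (Slc40a1), with a median of -1.94. Over all genes tested 10.1% were lower and 2.67% higher. The level filter used all 9 samples, so a member high only in CMP could pass it. With no level filter 9 of 30 fell and 1 rose, with a median of -0.52. The summed level of the 30 members was 335 to 691 FPKM in CMP and 57.8 to 392 FPKM in MEP, so this list was not low in CMP. Ccl9, a chemokine, fell by 4.89, F13a1, a coagulation factor of monocytes, by 4.53, and Ly86, a partner of a Toll-like receptor homologue, by 4.04. Lyz2, a lysozyme of myeloid cells, was at 118 to 229 FPKM in CMP and 76.0, 67.8, 12.4 and 316 FPKM in MEP and did not pass (-1.22). It was highest in MEP replicate 4, as the granulocyte genes were, and passed without that sample (-1.96). Of 7 stromal and endothelial genes tested 5 fell, and 17 of the 24 listed lay below the level filter. With no level filter 5 of 22 fell, with a median of -0.002.

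**Figure D4:**
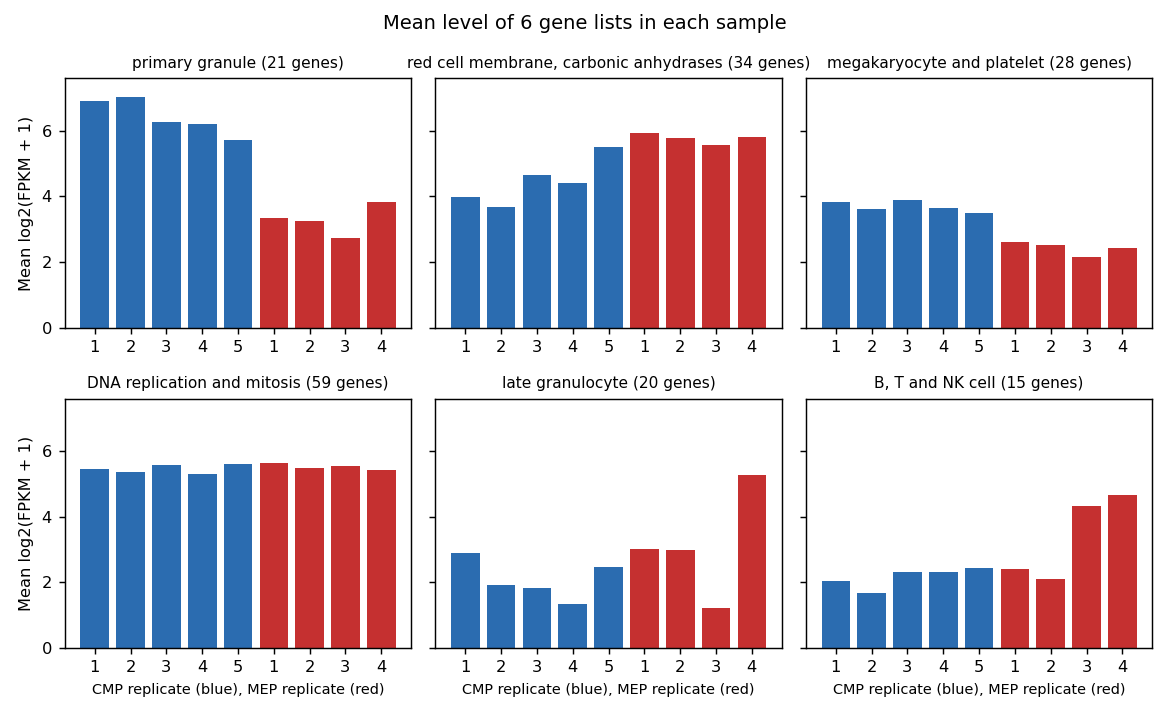
Mean level of the tested members of 6 lists in each of the 9 samples, as the mean of log2(FPKM + 1) (vertical axis), with CMP replicates 1 to 5 in blue and MEP replicates 1 to 4 in red. The granule list is lowest among CMP samples in replicate 5 (5.72), the red cell membrane list is highest among them in replicate 5 (5.52), the B, T and NK list is raised in MEP replicates 3 and 4 (4.33 and 4.65), and the late granulocyte list is highest in MEP replicate 4 (5.27).

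Few genes of DNA replication and mitosis passed the test. Of 59 tested, 1 rose, 1 fell and 57 did not pass both thresholds, with a median of 0.12, which was -0.01 when samples were scaled without mitochondrial genes. The gene that rose was Ccne1, which encodes cyclin E1 and drives entry into S phase, at 6.96, 3.37, 7.48, 7.20 and 19.1 FPKM in CMP and 36.2, 28.0, 27.9 and 24.9 FPKM in MEP (change 1.79 ± 0.34 (SE), adjusted p = 0.00217). Kif23, a motor of cell division, fell by 1.05. Mki67, a marker of cycling cells, was at 117 to 143 FPKM in CMP and 153 to 186 FPKM in MEP (0.40). Of 19 cell cycle inhibitors and G1 cyclins 2 rose (Gadd45a and Gadd45g, by 1.11 and 1.05) and 2 fell (Ccnd1 and Ccng2, by 1.64 and 1.16). The share that fell lay near the 10.1% lower over all genes tested, of which 2.67% were higher. When samples were scaled without mitochondrial genes 0 rose and 5 fell, Gadd45a (0.99) and Gadd45g (0.94) both missing the threshold, and without CMP replicate 3 or 5 4 fell. Kif23 and Gadd45g lay at the threshold of size, Kif23 not passing without CMP replicate 1 (-0.99) and Gadd45g not without CMP replicate 3 or 4 or MEP replicate 2 (0.95, 0.96 and 0.78). Ccnd2, another D cyclin, was lower in every MEP sample, by less than the threshold of size (-0.69), as was Cdk6, the kinase partner of D cyclins (-0.90). The inhibitors Cdkn1a and Cdkn1b changed by -0.98 and -0.71 and did not pass both thresholds, although Cdkn1a passed without any 1 of CMP replicates 3 and 5 or MEP replicates 2, 3 and 4 (-1.10 to -1.05).

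Of 22 genes of the Myc network and BCL2 family 2 fell and 0 rose, near the background of 10.1% lower and 2.67% higher. Bcl2, the founding inhibitor of apoptosis, was at 45.6, 49.6, 38.5, 31.3 and 22.8 FPKM in CMP and 3.63, 4.78, 3.65 and 4.26 FPKM in MEP (change -2.88 ± 0.20 (SE), adjusted p = 1.05e-05). Bcl2l1, which encodes Bcl-xL, the form that protects late erythroid cells, was low in both at 2.75 to 5.01 FPKM and 1.73 to 3.74 FPKM (-0.49). Myc was at 238 to 289.5 FPKM in CMP and 248 to 286 FPKM in MEP (change -0.01, adjusted p = 0.948), whereas its relative Mycn fell by 1.05, and not past the threshold without CMP replicate 3 (-0.996) or MEP replicate 3 (-0.98).

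Surface and homing genes fell in 15 of 32 tested and rose in 3 (1 without CMP replicate 1 or 2), with a median of -0.91. Over all genes tested 10.1% were lower and 2.67% higher. Besides Emb and Cd93, Cd53, a leukocyte tetraspanin, fell by 3.13. Itgb3 and Cd48, a ligand on blood cells, fell by 2.24 and 2.23. Rac1, a GTPase of cell movement, and Cd44, a hyaluronan receptor, were lower by less than the threshold of size (-0.52 and -0.50). Of 33 interferon-induced genes 5 fell and 1 rose, with a median of -0.32, and these shares lay near the background of 10.1% and 2.67%. Gbp3 and Ifitm1 fell by 2.09 and 1.96, and Isg20, an exonuclease, rose by 1.70. B2m and H2-K1, the chains of MHC class I, were lower by less than the threshold of size (-0.38 and -0.63).

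The other large changes lay outside these lists. Mt2, a metallothionein that binds zinc, was at 8.72, 6.10, 46.8, 33.7 and 127 FPKM in CMP and 171, 166, 190.5 and 197 FPKM in MEP (change 2.75 ± 0.70 (SE), adjusted p = 0.0106). Ctse, the aspartic protease cathepsin E, was at 44.9, 32.5, 82.0, 66.5 and 234 FPKM in CMP and 447, 348, 275 and 325 FPKM in MEP (change 2.25 ± 0.45 (SE), adjusted p = 0.00316). In both, CMP replicate 5 was the CMP sample nearest to MEP. Kap was listed at 0 in all 5 CMP samples and at 2.70, 5.44, 6.71 and 3.91 FPKM in MEP. It was also at 0 in every sample of multipotent progenitors and of GMP. In long-term and short-term stem cells its means were 5.93 and 6.25 FPKM, with lowest samples at 3.10 and 3.40 FPKM. The source of this split between populations was not tested. Mylpf, a myosin light chain, 2510003D18Rik and Sh2d4a rose by 2.35, 2.39 and 2.22. Of the largest falls, Eltd1, an adhesion receptor of endothelial and early blood cells, was at 53.5 to 117 FPKM in CMP and 0.85 to 5.94 FPKM in MEP (4.74 lower), and Gria3, Serpinf1 and Atp8b4 fell by 4.49, 4.34 and 4.19.

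The CMP samples differed among themselves in the same genes. The mean level of the 21 granule genes, as log2(FPKM + 1), was 6.92, 7.04, 6.28, 6.21 and 5.72 in CMP replicates 1 to 5 and 3.33, 3.25, 2.73 and 3.83 in MEP replicates 1 to 4. The mean level of the 34 tested genes of the red cell membrane list was 3.98, 3.69, 4.65, 4.40 and 5.52 in CMP and 5.94, 5.79, 5.57 and 5.81 in MEP. CMP replicates 1 and 2 thus had the highest mean level of the granule list and the lowest of the red cell membrane list, and replicate 5 the reverse. The globin list did not follow the membrane list, with a summed level of 1452 and 901 FPKM in CMP replicates 1 and 2 against 200.5, 168 and 504 FPKM in replicates 3 to 5. Across genes, Pearson's r with the 4 MEP libraries was 0.945 to 0.952 for CMP replicate 5 and 0.865 to 0.885 for replicates 1 and 2. With CMP replicates 1 to 4, r of CMP replicate 5 was 0.951, 0.943, 0.972 and 0.947. By this measure it was thus as close to MEP as to CMP replicates 1, 2 and 4. Without CMP replicate 5, 432 genes rose and 1333 fell. For the granule genes CMP replicate 5 still lay far above MEP, with Mpo at 1122 FPKM against at most 30.4 FPKM.

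Among the 6 normal populations of the series, Klf1, Gata1, Epor and Car1 had their highest mean log2(FPKM + 1) in MEP. Mpo, Elane, Ctsg and Prtn3 had theirs in GMP. Not all erythroid genes were highest in MEP. On this scale the means in long-term stem cells and in MEP were 10.6 and 9.50 for Hbb-b1, 7.71 and 7.47 for Hba-a1, and 4.91 and 2.80 for Alas2. Klf1 had means of 119 FPKM in MEP, 34.1 FPKM in CMP, 29.0 FPKM in long-term stem cells, 9.02 FPKM in short-term stem cells, 2.98 FPKM in multipotent progenitors and 0.53 FPKM in GMP. Spi1 had means of 70.8 FPKM in GMP, 64.8 FPKM in multipotent progenitors, 59.0 FPKM in CMP, 39.3 FPKM in short-term stem cells, 32.8 FPKM in long-term stem cells and 6.12 FPKM in MEP. Of these populations MEP had both the highest Klf1 and the lowest Spi1. The neutrophil gene S100a8 had means of 6124 FPKM in long-term and 3046 FPKM in short-term stem cells. As mean log2(FPKM + 1) it was at 7.54 and 8.45, so high single libraries weigh heavily in the FPKM means. In GMP that log2 mean was 10.8. The part of carried-over mature cells in the stem cell values was not tested. These levels are given without a test.

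**Figure D5:**
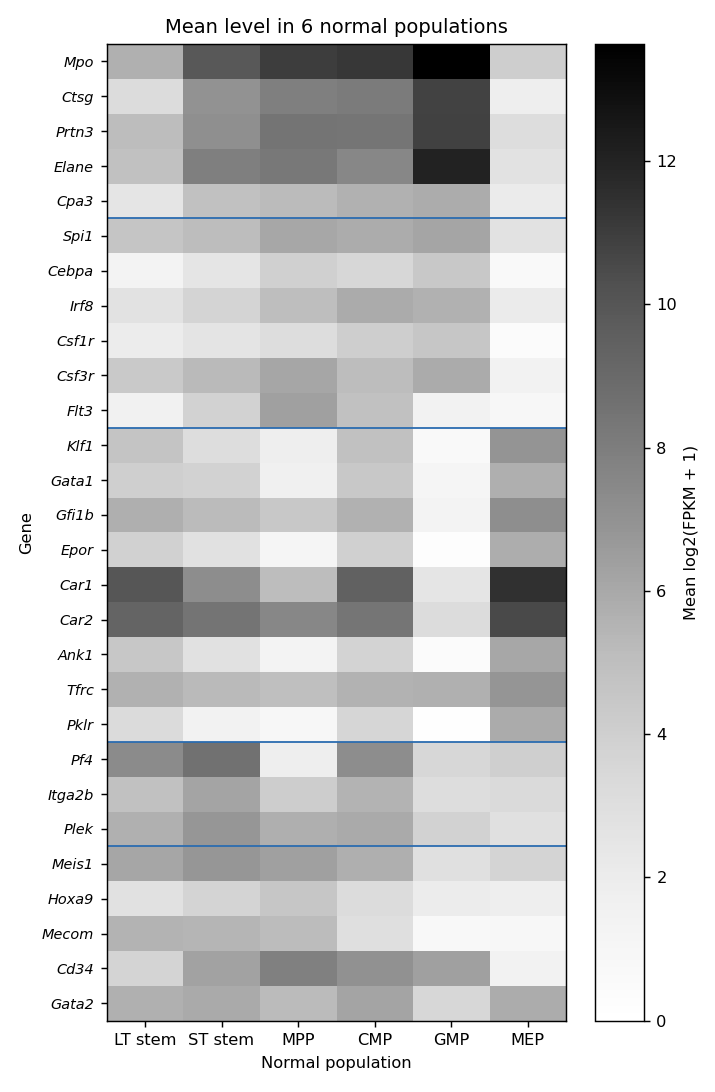
Mean log2(FPKM + 1) of 28 named genes (rows) in the 6 normal populations (columns: long-term and short-term stem cells, multipotent progenitors, CMP, GMP and MEP), with darker colour for a higher level and rows in the order granule, granulocyte and monocyte regulators and receptors, erythroid, platelet, and stem cell genes. Klf1, Gata1, Epor and Car1 are darkest in MEP, and Mpo, Elane, Ctsg and Prtn3 are darkest in GMP.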

How the data were processed

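RNA was measured by sequencing in 49 mouse samples, of which the 5 CMP and 4 MEP samples were compared. Per the study's methods, amplified cDNA (NuGEN Ovation) was sequenced on an Illumina HiSeq instrument. Amplification can change the relative levels of transcripts. The FPKM values were deposited by the authors as 1 table of 38253 genes rounded to 2 decimals, and the submitters' processing notes name RSEM and the build mm9. The aligner and the annotation are not given in the sources used here, nor are read counts, so counting error could not be computed. Of 68 columns, 49 matched a sample by name and 19 did not and were not used. Gene identifiers were matched to the GENCODE annotation of NCBIM37, which gave 33068 genes a symbol and position. No pair of samples held identical values.

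Genes averaging 1 FPKM or more across the 9 samples were tested on log2(FPKM + 1) with limma 3.58.1 in R 4.3.3 (moderated test with a mean trend, two-sided, Benjamini-Hochberg adjustment over all 11721 genes). The call required both an adjusted p under 0.05 and a change beyond 1. The p-values weigh the difference between the groups against the spread between samples within them. Experiment was not in the model, because the sources used here do not say which sample belonged to which. In data simulated for this comparison on 11721 genes, 134 of 200 genes changed 2-fold passed by adjusted p, 189 of 200 changed 4-fold and 195 of 200 changed 8-fold, with 0 calls when no gene was changed.

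Relative depth was estimated from the smallest steps in the FPKM of 1799 low genes, where 95.3% of sample pairs lay within 0.05 log2 of the fit. Promoter sequences came from RefSeq, and shares of motifs were computed over the 250 bases before annotated starts. Python 3.11.15 was used for tables and figures.

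The genes, samples and lists were chosen with earlier results of these data known. Named were the 12 largest changes in each direction among called genes whose groups did not overlap and that shared less than 50% of their exon sequence with another gene. Also named were the sort markers and, from each list, up to 6 called genes with the largest change, up to 3 with the highest mean that were not called, and the genes that define the list. Cd44, Cd48, Clec12a, Gstm5, Jak2, Klf3, Mllt3, Ms4a1, Prdx2, Stat5a and Trib2 lie outside that rule and were chosen after their values were seen. Some genes that the rule would name are not reported here. Alternatives varied the pseudocount (0.1), the level filter, the scaling, a correction for GC content and length, a replicate block, the groups in the model and the samples left out.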

Additional observations from a re-analysis of the deposited data

Results flagged for a closer look

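For each of the 151 genes named above, the highest and the lowest sample of each group were examined for a gap to the nearest sample that took up most of the group's range. Of 301 groups with values, 17 held such a sample, and chance gives about 1 in 20. CMP replicate 5 was that sample in 5 of the 17, MEP replicates 3 and 4 in 4 each, MEP replicate 2 in 2, and CMP replicate 4 and MEP replicate 1 in 1 each.

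CMP replicate 5 stood apart below the rest of its group for Csf3r (17.23 FPKM), Flt3 (15.15 FPKM), Eltd1 (53.45 FPKM) and the chromatin protein gene Hmga2 (2.14 FPKM), and above the rest for the stress-induced gene Gadd45a (15.33 FPKM). In CMP replicate 4 the separate value was Slamf1, at 2.19 FPKM.

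MEP replicate 3 was low for Mpo (2.74 FPKM) and Alas2 (1.68 FPKM), and stood apart for F2r (22.28 FPKM) and H2-DMb1 (3.78 FPKM). MEP replicate 4 stood apart for Clec9a (0 FPKM), Mylpf (18.2 FPKM), Pklr (49.56 FPKM) and Vwf (7.14 FPKM). The other 3 values were Calr at 137.54 FPKM and Ly6a at 0.19 FPKM in MEP replicate 2, and Cdkn1a at 7.16 FPKM in MEP replicate 1. The part of these samples in the values reported above is given by leaving each of them out in turn.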

How the results depend on the processing

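The counts of called genes were 1933 (394 higher and 1539 lower in MEP) with a pseudocount of 0.1, 1478 without the level filter (20776 genes tested), 1454 with median-ratio scaling, 1466 with all 6 normal groups in the model, 1638 (256 and 1382) when scaled without mitochondrial genes, and 1509 (249 and 1260) without MEP replicates 3 and 4. Leaving out 1 replicate gave 1349 (without CMP replicate 1) to 1765 (without CMP replicate 5). With no threshold on fold change 4663 genes passed, and 635 passed with a mean of at least 10 FPKM, where fewer genes were tested. Correction for GC content and length left 1312 genes of 11319, split as 390 higher and 922 lower, with a median change of 0.02.

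Deviations of samples of the same number were weakly correlated at most (-0.06, 0.13, 0.09 and -0.02 for replicates 1 to 4). Between different numbers the highest value was 0.15 (CMP replicate 5 with MEP replicate 1). Replicate 2 of each group correlated best with its own number, and replicates 1 and 4 did not. The sources used here do not say that a number marks a pair. With the replicate number as a block 1786 genes passed (444 and 1342), and with the block and the correction for GC content and length 1599 (520 and 1079). CMP replicate 5 has no MEP sample of its number, so the block leaves it out of the comparison.

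In 7 of the 24 lists the count of called genes moved by more than 1.5 times in at least 1 setting, the stricter level filter aside, under which fewer members were tested. Leaving out 1 replicate gave 0 to 4 globins (1 with all samples), 3 to 11 B, T and NK cell genes (6), 3 to 13 late granulocyte genes (4) and 1 to 2 genes each for DNA replication and mitosis (2) and the Myc network and BCL2 family (2). Without MEP replicates 3 and 4 there were 0 globins, 8 MHC class II and dendritic genes (13), 3 B, T and NK cell genes and 1 of the Myc network and BCL2 family. The replicate block gave 3 globins, 10 B, T and NK cell genes and 7 cyclin-dependent kinase inhibitors and G1 cyclins (4), and the block with the correction for GC content and length gave 3, 10 and, for the Myc network, 1. All 6 normal groups in the model gave 0 globins and 1 late granulocyte gene, and no filter gave 0 globins. Median-ratio scaling and the correction for GC content and length each gave 1 for DNA replication and 1 for the Myc network. For the lists, the only alternative planned was median-ratio scaling, and list counts under every other alternative were chosen after seeing the data. For every result, leaving out MEP replicates 3 and 4 together and the stricter level filter were added after seeing the data.

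Of 150 named genes tested, 116 kept the same call in every setting. None of the genes that had risen or fallen changed direction, and the direction of the other genes was not compared. Of all settings the most genes lost their call without MEP replicates 3 and 4 (14 genes), where Gata1 (1.26), Klf3 (1.24), Trib2 (1.43), Sphk1 (2.43), Pklr (2.38), Mt2 (2.65), Slc40a1 (1.79) and Gstm5 (1.74) kept their size and 2 MEP samples remained. MEP libraries were the shallower, so differences among genes near 1 FPKM were the least resolved.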
